A study of Canis lupus familiaris with 8 samples.

Results

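The genes described here encode the enzymes that attach ubiquitin and its relatives to proteins and those that take them off again. They were chosen by gene name alone: a probe set was a member if the annotation of the array gave it a single symbol beginning with one of the family stems for activating enzymes (UBA, UBE1), conjugating enzymes (UBE2), ligases (UBE3, UBE4, NEDD4, HECT, HERC, RNF, TRIM, SIAH, STUB1, MDM2), parts of cullin ligases (CUL, SKP1, FBXO, FBXL, FBXW), deubiquitinases (USP, UCHL, OTU) and modifiers (NEDD8, SUMO). This gave 241 probe sets of 150 genes, out of 23836 probe sets tested and 6540 genes with a symbol. No measured value entered this rule, although it was chosen with earlier results of these data known. A few members are no enzymes of the pathway in the strict sense. NEDD8 and SUMO2 are the modifiers themselves, UBE2V1 and UBE2V2 are conjugating enzyme variants without the catalytic cysteine, SKP1 and the F-box proteins are adaptors, and USP6NL is a GTPase-activating protein that shares only its name with the USP family.

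The samples were left ventricular tissue of 8 male mongrel dogs, with 1 Affymetrix Canine Genome Array per dog. Control dogs were D5, D6, D7 and D8. The diabetic (DM) dogs, 0292, 0294, 1087 and 1111, had been given alloxan monohydrate intravenously, 40 to 60 mg/kg, and the heart was taken 4 weeks later. Alloxan kills the insulin-producing beta cells of the pancreas, and some dogs received it a second time when their glucose stayed low. Only dogs that became hyperglycaemic entered the DM group, so the comparison is of established diabetes with no diabetes, and the alloxan itself was given to the DM dogs only. Both groups had been operated on for implanted pressure and flow probes, and the labels give a body weight of 23 to 27 kg for either. The DM dogs lost weight, as the study describes, so this range need not hold for the day the heart was taken. Dogs were the replicates.

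Ubiquitin is a small protein that is joined to other proteins by a relay. An activating enzyme (E1) loads it, a conjugating enzyme (E2) carries it, and a ligase (E3) chooses the substrate. HECT ligases take ubiquitin over from the E2 before passing it on, whereas RING and U-box ligases hold E2 and substrate together, and cullin ligases do so on a scaffold with exchangeable adaptors such as F-box proteins. Chains of ubiquitin send many proteins to the proteasome, other forms of the mark steer trafficking and signalling, and deubiquitinases remove it. NEDD8, attached by its own E1 and E2 enzymes, switches cullin ligases on. In muscle and heart the system is known for the turnover of contractile proteins, with the F-box protein FBXO32 as a ligase component that is induced in wasting muscle.

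Signals are given below as normalized log2 signal, always in the order D5, D6, D7 and D8 and then 0292, 0294, 1087 and 1111, and differences as log2 fold change of DM over control. A difference of 1 is thus a change of 2-fold, and values after ± are the SE of a difference or the SD of a group. Control dog D8 stood apart from the other control dogs. The hybridization controls, which are spiked into every sample, had a mean log2 deposited signal of 13.09 to 13.36 in D5, D6 and D7, of 15.77 in D8 and of 15.17 to 17.72 in the DM dogs. Their group difference was 2.44, with an exact two-sided permutation p of 0.0571, and without D8 it was 3.07, with an exact p of 0.0286, the smallest that 3 against 4 dogs can give. The 3' minus 5' log2 signal of actin, which is larger when RNA is degraded or copied short, was 1.69, 1.35, 3.04 and 7.79 in D5 to D8 and 6.02, 5.62, 3.59 and 7.71 in the DM dogs, so D5, D6 and D7 were below all DM dogs and D8 above them (group difference 2.27, exact two-sided permutation p = 0.229, and 3.71 without D8, p = 0.0571). For GAPDH it was 2.62, 2.17, 3.51 and 6.08 against 1.78, 0.37, 1.62 and 3.90, a difference in the other direction (-1.68, exact p = 0.171). Control and DM arrays carry different series of names and no hybridization date was given in the sources used here, so a batch of arrays and diabetes cannot be told apart. The tissue had the markers of its label: the mean signal over 10 of 15 listed cardiomyocyte genes was 13.32 to 15.60 in control dogs, with D8 lowest, and 11.15 to 12.84 in DM dogs. Of the 41 probe sets of these genes, 14 were lower (34.1%, beside 8.87% of all probe sets tested) and 4 higher (9.76% beside 7.84%) at an unadjusted limma p below 0.05. The mean over 5 smooth muscle and pericyte genes was 10.38 to 11.22 and 8.85 to 10.05, and that over 10 macrophage and monocyte genes 8.01 to 9.27, with D8 lowest, and 8.75 to 10.27. These means take the brightest probe set per gene. Of all 11 smooth muscle probe sets, 6 were higher and 5 lower (median 0.37), and 4 were lower (36.4%) and 0 higher at that level. Of 13 macrophage and monocyte probe sets, 11 were higher and 2 lower, and 5 were higher (38.5%) and 0 lower at that level. The means over listed endothelial, fibroblast, other leukocyte, red blood cell and adipocyte genes overlapped between the groups. In tissue of many cell types, fewer cells of a type and less RNA per cell cannot be told apart, and the part of these differences in the results below was not tested.

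The members were divided almost evenly between higher and lower. Of the 241 probe sets, 122 were higher and 119 lower in DM dogs, and the median log2 fold change was 0.02, beside 0.06 over all probe sets tested. Single differences ranged from -3.71 (OTUB1) to 3.04 (USP33). With limma, 0 of the 241 members had an adjusted p below 0.05 (0.0168% of all probe sets did), and the smallest adjusted p among members was 0.0609. The criteria of the study's methods, which ask for a 2-fold difference at a nominal level of 0.01, were met by 11 members, which is 4.56% of them, beside 4.97% of all probe sets. Of these, 9 were lower in DM dogs (3.73% of members, beside 2.52% of all) and 2 were higher (0.830% beside 2.45%). After Benjamini-Hochberg adjustment of the methods' test, 0 members and 0.0923% of all probe sets met them.

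Before adjustment, 45 members had a limma p below 0.05, or 18.7%, where 16.7% of all probe sets did. The lower side held 29 of them (12% beside 8.87% of all) and the higher side 16 (6.64% beside 7.84%). In 25 members every DM dog was below every control dog (10.4%, beside 5.85% of all probe sets), and in 8 every DM dog was above (3.32% beside 4.93%). The split depended on the scaling. With median centring in place of quantile normalization 7 were higher and 36 lower, and with the hybridization controls as the reference there were 0 higher and 130 lower, as the median log2 fold change went to -2.14 for members and -2.09 for all probe sets. Of the named members that were higher, USP9X, UBE2E1, UBE2K, HERC1, FBXO3, UCHL5, USP16, UBA2, MDM2, 2 probe sets of USP7 and 1 of USP11 were lower under that last scaling, so the higher values below are relative to the bulk of probe sets. The limma count of 0 depended on single dogs. Without D8, UCHL5, OTUB1 and USP33 had an adjusted p below 0.05 (3 members, 1.24%, beside 1.36% of all probe sets), and without DM dog 1111 there were 7 (2.90% beside 1.98%), which were USP11, NEDD8, RNF113A, RNF10, OTUB1, RNF181 and OTULIN. When 1 dog was left out, 29 (without D5 or D7) to 41 (without 1111) of the 45 members still had an unadjusted p below 0.05, and 4 (without D5, D7 or 1087) to 7 (without 0292 or 1111) of the 11 still met the criteria of the methods.

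**Figure D1:**
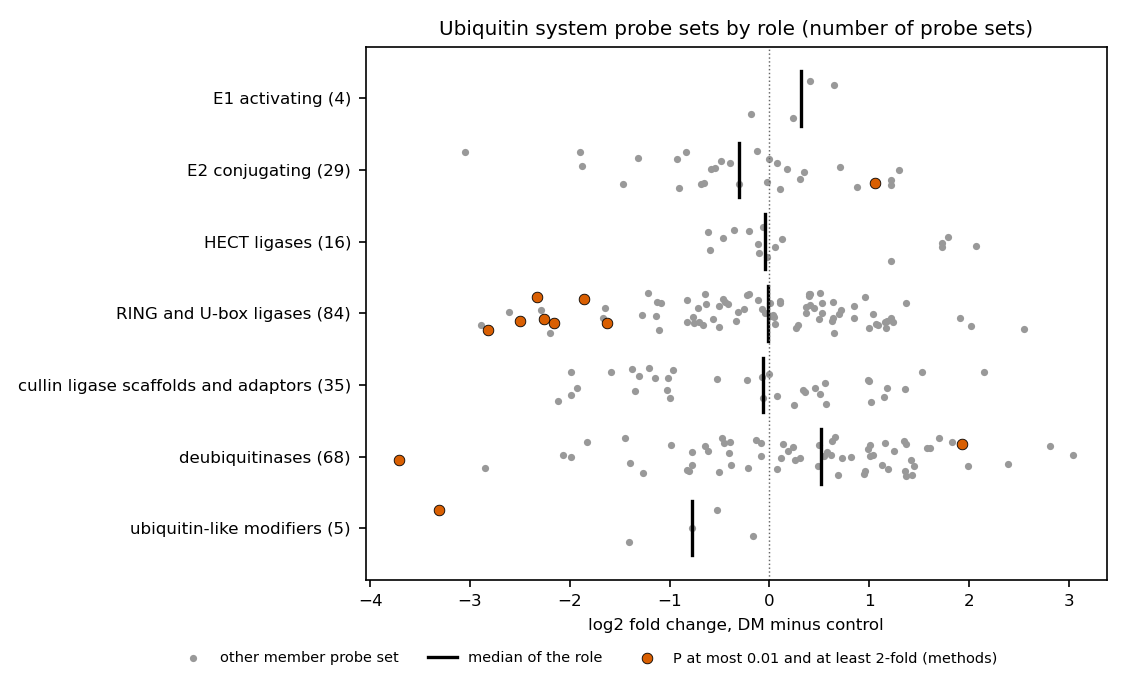
Log2 fold change of DM over control (horizontal axis) of each of the 241 member probe sets, arranged by the role of the gene product, with the median of each role as a black bar. Orange points mark the 11 probe sets that met the criteria of the methods, of which 9 lie to the left of 0 and 2 to the right.

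The differences were set against the brightness of the probe set in control hearts, which depends on its probes as well as on the transcript and is no measure of abundance between genes. When all probe sets were divided into quintiles by their mean control signal, the members in the dimmest quintile (36 probe sets, 4.45 to 5.83) had a median log2 fold change of 1.05, and 33 of the 36 were higher in DM dogs. In the following quintiles the medians of the members were 0.51, -0.22, -0.62 and, in the brightest quintile (67 probe sets), -0.45. The medians of all probe sets in these quintiles ran alike, at 0.96, 0.40, -0.22, -0.60 and -0.59. The control signal both sets the quintile and is subtracted in the difference, so some of this slope is built in. With quintiles set by the mean of all 8 dogs, a choice made after seeing the data, the medians of the members were 0.12, 0.43, -0.08, -0.43 and -0.08, and those of all probe sets 0.47, 0.36, -0.07, -0.37 and -0.24. Of the members, 27.8% were in the brightest quintile. There 18 of the 67 members (26.9%) had every DM dog below every control dog, beside 18.8% of all probe sets of that quintile. Of the 16 members that were higher with an unadjusted p below 0.05, 8 were in the dimmest quintile of control signal (50%, beside 49.5% of all such probe sets), and of the 29 that were lower, 18 were in the brightest (62.1% beside 55.6%).

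**Figure D2:**
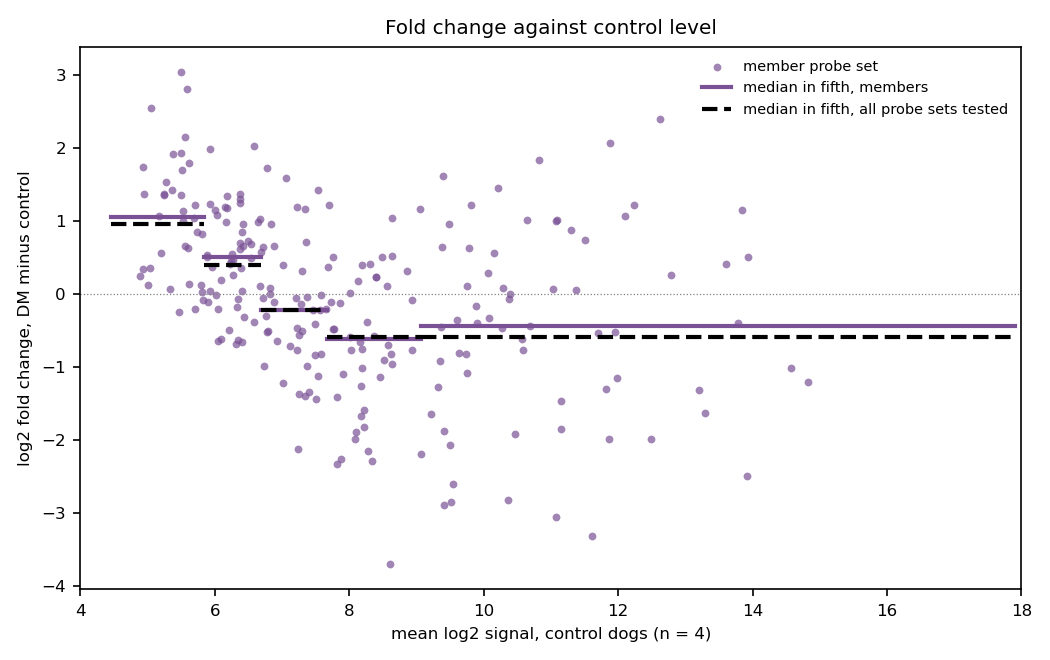
Log2 fold change of each member probe set (points, vertical axis) against its mean log2 signal in the 4 control dogs (horizontal axis). Purple lines give the median of the members in each quintile of control signal, from 1.05 in the dimmest to -0.45 in the brightest, and dashed black lines the median of all probe sets tested, from 0.96 to -0.59. The control signal enters both axes, so some of the downward slope is built in.

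The E1 enzymes, at the head of the relay, had log2 fold changes of -0.18 to 0.65. They were represented by 4 probe sets of 3 genes, and all 3 serve relatives of ubiquitin: UBA2 is a subunit of the SUMO E1, UBA3 the catalytic subunit of the NEDD8 E1, and UBA7 the E1 of the interferon-induced modifier ISG15. UBA3 differed by 0.41 and 0.23 in its 2 probe sets. UBA2 was 7.31, 7.39, 7.45 and 5.36 in the control dogs and 9.35, 8.03, 5.01 and 7.71 in the DM dogs, a log2 fold change of 0.65 ± 0.88 (adjusted p = 0.748), with D8 far below the other control dogs. Without D8 the difference was 0.16. UBA7 had a log2 fold change of -0.18 ± 0.87 (adjusted p = 0.936). The group had 0 probe sets with an unadjusted limma p below 0.05.

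Among the E2 enzymes, 18 of 29 probe sets were lower in DM dogs and the median was -0.31 (0.03 without quantile normalization), with 5 probe sets lower (17.2%, beside 8.87% of all probe sets) and 0 higher (7.84% of all) at an unadjusted p below 0.05. In both directions together this is near the 16.7% of all probe sets. UBE2E1 (1605594_at), an E2 that works with many RING ligases, was the only one that met the criteria of the methods, and it was higher. Its signals were 11.85, 11.90, 11.95 and 12.73 in the control dogs and 13.16, 13.23, 13.38 and 12.91 in the DM dogs. Every DM dog was above every control dog, but D8 lay close to the DM dogs, and the log2 fold change was 1.06 ± 0.55 (adjusted p = 0.352). UBE2F (1583657_at), one of the E2 enzymes of NEDD8, was 8.26, 8.28, 8.06 and 7.78 in the control dogs and 4.86, 6.43, 7.54 and 5.96 in the DM dogs. The groups did not overlap, and the difference was -1.90 ± 0.65 (adjusted p = 0.174). UBE2D2, a broadly used partner of RING ligases, was lower in each of its 3 probe sets, at -1.88, -0.92 and -0.58. Those of -0.92 and -0.58 share a source sequence, and only that of -1.88 had an unadjusted p below 0.05. UBE2E3 (1605148_s_at, -1.47) and the variant UBE2V1 (-1.31) were also lower at that level, and a second UBE2E3 probe set differed by 0.71. The largest difference among the E2 enzymes was that of UBE2R2 (1603947_at), an E2 of cullin ligases that was picked out after its values were seen: 11.23, 11.14, 11.13 and 10.81 in the control dogs and 5.05, 9.60, 6.54 and 10.91 in the DM dogs. DM dog 1111 had the level of the control dogs, 0292 and 1087 were far lower, and the difference was -3.05 ± 1.05 (adjusted p = 0.177). The other probe sets of UBE2R2 differed by -0.83 and 0.35. The E2 with the smallest p on the higher side was UBE2K, at 1.21 ± 0.59 (adjusted p = 0.325). UBE2N (-0.02), UBE2D3 (0.10) and UBE2L3 (-0.91 and -0.65), which serve large sets of ligases, had differences of less than 1.

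Of the 16 probe sets of HECT ligases, 7 were higher and 9 lower, and 3 had an unadjusted p below 0.05, all higher (18.8%, beside 7.84% of all probe sets higher and 8.87% lower). The first was HERC1 (1604557_at), a very large protein with a HECT domain, at 11.02, 10.93, 12.05 and 13.49 in the control dogs and 13.99, 13.94, 14.29 and 13.55 in the DM dogs. Signals of the DM dogs lay within a narrow band above all control dogs, of which D8 came nearest, and the log2 fold change was 2.07 ± 0.67 (adjusted p = 0.154). The others were a second HERC1 probe set (1.73), in the middle quintile of control signal, and one of HERC2 (1.79), in the dimmest, where 19.4% of all probe sets were higher at that level and 0 were lower. The other HERC2 probe set differed by -0.36. Apart from the first, the 7 HERC1 probe sets ranged from -0.11 to 1.73. UBE3A, the ligase lost in Angelman syndrome, had a log2 fold change of -0.62 ± 0.58 (adjusted p = 0.626), and UBE3C and UBE3D differed by -0.47 and -0.59.

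The RING and U-box ligases were the largest role, with 84 probe sets of 58 genes. They were evenly divided, with 42 higher and 42 lower and a median of -0.02. At an unadjusted p below 0.05, 12 were lower (14.3%, beside 8.87% of all probe sets) and 2 higher (2.38% beside 7.84%), together 16.7% as over all probe sets. The 7 that met the criteria of the methods were lower (8.33%, beside 2.52% of all). UBE4A, a U-box ligase that extends ubiquitin chains begun by other enzymes, gave 3 of these 7 with different probe sets. By the annotation, 1594807_at and 1594808_at share a source sequence, so they are not separate evidence. The brightest, 1589600_s_at, was 14.26, 14.52, 14.09 and 12.80 in the control dogs and 12.19, 10.67, 11.01 and 11.80 in the DM dogs, with means of 13.92 ± 0.77 in control and 11.42 ± 0.70 in DM dogs (mean ± SD, n = 4 per group). A second, 1594807_at, was 13.26, 13.44, 13.12 and 13.37 in the control dogs and 11.33, 12.10, 11.28 and 11.96 in the DM dogs, and here D8 was within the range of the other control dogs. In the third, 1594808_at, the signals were 10.89, 11.57, 10.76 and 11.36 in the control dogs and 7.96, 9.56, 9.65 and 9.99 in the DM dogs. All 3 had DM dogs below every control dog, with log2 fold changes of -2.50 ± 0.63 (adjusted p = 0.0923), -1.63 ± 0.55 (adjusted p = 0.167) and -1.85 ± 0.62 (adjusted p = 0.167). The remaining UBE4A probe sets were dim in control dogs (means of 7.02 and 5.47) and differed by -1.22 and -0.25. The related U-box ligase UBE4B differed by 0.10 and 0.45.

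RNF10, a RING ligase known from the surveillance of stalled ribosomes, met the criteria with 2 of its 5 probe sets. The first, 1583815_at, was 10.62, 10.56, 10.49 and 9.80 in the control dogs and 7.28, 6.92, 6.34 and 9.65 in the DM dogs. DM dog 1111 was almost level with D8, whereas the other DM dogs were clearly lower, and the difference was -2.82 ± 0.73 (adjusted p = 0.0983). The second, 1592882_at, was 8.25, 8.42, 8.53 and 7.94 in the control dogs and 5.65, 6.31, 5.39 and 7.17 in the DM dogs, a difference of -2.15 ± 0.59 (adjusted p = 0.112). The other probe sets of RNF10 differed by -0.76, 0.01 and 0.41. RNF123 (1598245_at) is the catalytic subunit of a ligase for the cell cycle inhibitor CDKN1B. Its signals were 7.64, 7.84, 7.46 and 8.55 in the control dogs and 6.90, 4.94, 5.49 and 5.10 in the DM dogs, so that D8 was the highest of all dogs, and the difference was -2.26 ± 0.63 (adjusted p = 0.112). TRIM68 (1588853_at), described as a coactivator of the androgen receptor, was 7.85, 8.36, 7.46 and 7.58 in the control dogs and 4.73, 6.80, 4.69 and 5.73 in the DM dogs, a difference of -2.33 ± 0.64 (adjusted p = 0.112). In both genes the groups did not overlap.

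Several known ligases had large differences that did not meet the criteria, and in these the DM dogs were far apart. STUB1 (1583182_at), the U-box ligase that works with heat shock chaperones, was 9.62, 9.55, 9.64 and 9.39 in the control dogs and 7.49, 4.69, 9.15 and 6.44 in the DM dogs. The control dogs lay close together and all DM dogs were below them, but DM dog 1087 was only slightly so, and the difference was -2.61 ± 0.82 (adjusted p = 0.147). TRIM28 (1588974_at), a corepressor of transcription, was 9.0, 9.33, 9.17 and 8.78 in the control dogs and 6.45, 8.41, 5.15 and 7.48 in the DM dogs, again without overlap, with a difference of -2.20 ± 0.71 (adjusted p = 0.153). RNF181 (1588107_at), RNF113A (1583539_at) and RNF7 (1587487_at) are RING proteins that were picked out after their values were seen. RNF181 was 9.59, 9.58, 9.46 and 8.98 in the control dogs and 5.15, 7.43, 4.97 and 8.49 in the DM dogs, a difference of -2.89 ± 0.79 (adjusted p = 0.111), and RNF113A differed by -2.29 ± 0.76 (adjusted p = 0.164). RNF7, which docks on cullins, had a difference of -1.65 ± 0.62 (adjusted p = 0.210), with no overlap. On the higher side stood RNF13 (1589011_at), a ligase of endosomal membranes: 4.63, 5.38, 4.84 and 5.35 in the control dogs and 8.30, 8.27, 5.32 and 8.51 in the DM dogs. DM dog 1087 was at the level of the control dogs and the other DM dogs well above, and the difference was 2.55 ± 0.74 (adjusted p = 0.126). Deposited signals of this RNF13 probe set were 3.33, 19.6, 7.68 and 26.3 in the control dogs, so the offset of 16 bears on the size of the difference. A second and brighter RNF13 probe set, with a control mean of 10.07, differed by 0.28. The remaining higher one, RNF25, had a difference of 2.02 ± 0.71 (adjusted p = 0.185) without overlap. MDM2 (1582716_at), a RING ligase, lay between 11.03 and 11.71 in all dogs, at 11.32, 11.18, 11.27 and 11.71 in the control dogs and 11.03, 11.47, 11.53 and 11.67 in the DM dogs, a difference of 0.05 ± 0.54 (adjusted p = 0.969), and its other probe set differed by 0.51. SIAH1 differed by -0.50.

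**Figure D3:**
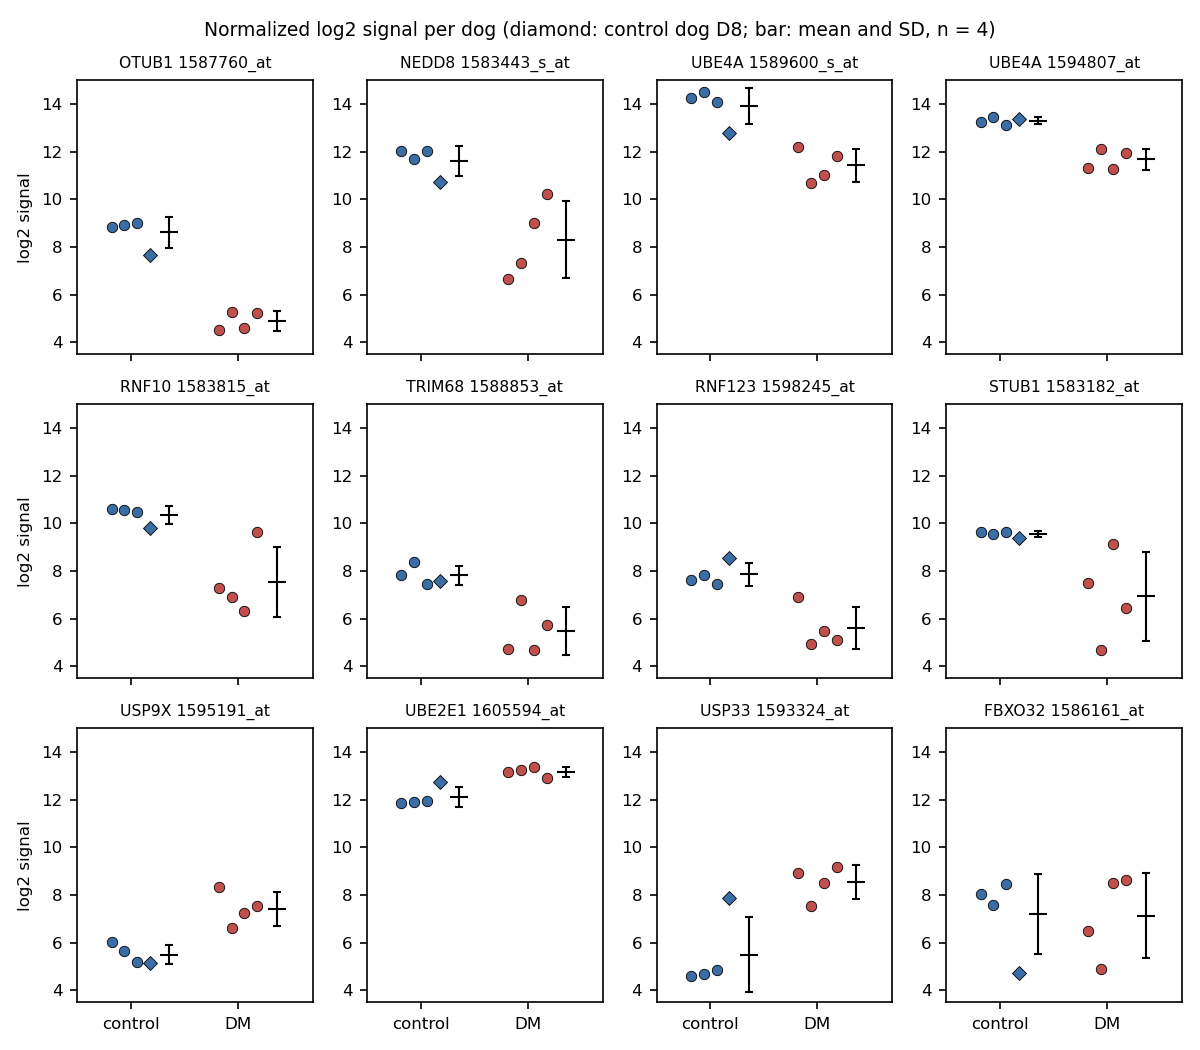
Normalized log2 signal (vertical axis, the same in all panels) of 12 member probe sets in each of the 4 control dogs (blue, D8 as a diamond) and the 4 DM dogs (red), with mean ± SD beside them. The groups do not overlap in OTUB1, NEDD8, both UBE4A probe sets, RNF10, TRIM68, RNF123, STUB1, USP9X and UBE2E1, and they overlap in USP33, through D8, and in FBXO32.

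Of the parts of cullin ligases, 16 probe sets were higher and 19 lower, with a median of -0.06 and 0 that met the criteria of the methods. At an unadjusted p below 0.05 there were 6 lower (17.1%, beside 8.87% of all probe sets) and 1 higher (2.86% beside 7.84%). CUL1 (1583915_at), the scaffold of the ligases that use F-box proteins, was 10.44, 10.49, 10.39 and 10.54 in the control dogs and 6.53, 7.93, 9.08 and 10.62 in the DM dogs. The control dogs were tightly grouped, DM dog 1111 was level with them and 0292 was lowest, and the difference was -1.92 ± 0.79 (adjusted p = 0.243). CUL4A was lower in each of 3 probe sets, from -1.59 to -1.02, but 1595038_s_at and 1595039_s_at share a source sequence. CUL9 differed by -1.37, and CUL3 and CUL2 by 0.56 and 0.99. SKP1, which joins F-box proteins to CUL1, differed by 1.15. Among the F-box proteins, FBXL5, a sensor of iron, was lower without overlap in both of its probe sets, at -1.99 ± 0.76 (adjusted p = 0.214) and -1.15 ± 0.58 (adjusted p = 0.339). Both FBXL5 probe sets share a source sequence. FBXW7, the receptor for cyclin E and MYC, differed by -1.99 and -1.35, and FBXO42 by -2.12 ± 0.72 (adjusted p = 0.174), the smallest p on the lower side. FBXO3, at 2.15 ± 0.79 (adjusted p = 0.201) and in the dimmest quintile of control signal, had the smallest p on the higher side. FBXO32 (1586161_at), the F-box protein of muscle wasting, was 8.04, 7.57, 8.48 and 4.72 in the control dogs and 6.49, 4.90, 8.52 and 8.65 in the DM dogs. Its lowest value was that of D8, both groups covered nearly the same range, and the difference was -0.06 ± 0.98 (adjusted p = 0.981). Without D8 it was -0.88.

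The deubiquitinases were more often on the higher side, with 43 of 68 probe sets higher and a median log2 fold change of 0.52, beside 0.06 for all probe sets. This median was positive under every other setting tried (0.18 to 0.79) except scaling to the hybridization controls, where it was -1.65 and the median of all probe sets -2.09. At an unadjusted p below 0.05, 10 were higher (14.7%, beside 7.84% of all probe sets) and 5 lower (7.35% beside 8.87%). USP7 and USP9X gave 9 and 7 of the 68 probe sets, with 6 higher in each. Among the 10, USP33, OTULIN, USP9X 1595191_at and 1597369_at and USP5 1585374_at were in the dimmest quintile of control signal. The USP5 probe set differed by 1.37 and the other one of that gene by -0.81. In that quintile all probe sets had a median of 0.96, and 19.4% were higher at that level. The role was not compared with probe sets of like control signal. The member with the largest difference was a lower one. OTUB1 (1587760_at), of the OTU family, cleaves ubiquitin chains and also holds back several E2 enzymes. Its deposited signals were 383, 435, 483 and 199 in the control dogs and 17.9, 28.2, 8.77 and 12.7 in the DM dogs. On the normalized log2 scale these were 8.84, 8.92, 9.02 and 7.65 in the control dogs and 4.50, 5.28, 4.59 and 5.23 in the DM dogs. All DM dogs were far below all control dogs, among which D8 was lowest, and they were at levels of the dimmest quintile of probe sets, so that the offset of 16 bears on the size of the change. It was -3.71 ± 0.58 (adjusted p = 0.0609), -2.49 with an offset of 64, and from -5.97 to -2.49 over the 17 alternatives. OTUB2 differed by -0.09.

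USP9X (1595191_at) was the deubiquitinase that met the criteria on the higher side. It acts on substrates in endocytosis and growth factor signalling, and its signals were 6.02, 5.64, 5.18 and 5.16 in the control dogs and 8.32, 6.60, 7.24 and 7.56 in the DM dogs. Every DM dog was above every control dog and the difference was 1.93 ± 0.59 (adjusted p = 0.139), but all 7 probe sets of USP9X were dim in control dogs (means of 5.50 to 6.10), and they differed by -0.21 to 1.93, with 6 of the 7 higher. Among these, 1595190_at shares its source sequence with 1595191_at, and it differed by only 0.19, with overlapping groups. The largest difference on the higher side was that of USP33 (1593324_at), which takes ubiquitin off receptors: 4.61, 4.67, 4.86 and 7.86 in the control dogs and 8.94, 7.55, 8.51 and 9.17 in the DM dogs. D8 lay among the DM dogs, and the difference was 3.04 ± 0.78 (adjusted p = 0.0981), or 3.84 with an adjusted p of 0.0295 without D8. The deposited signals of D5, D6 and D7 were 3.09, 4.16 and 8.09, below the offset of 16, so the offset bears on this size too, which was 3.93 with an offset of 1 and 2.04 with an offset of 64. Its other probe sets differed by 1.43 and 0.31. OTULIN (1596683_at), which cleaves linear ubiquitin chains, UCHL5 (1583355_at), bound to the proteasome, and USP16 (1605336_at), which acts on histone H2A, were picked out after their values were seen. OTULIN was 5.01, 6.23, 6.28 and 4.81 in the control dogs and 10.21, 8.47, 8.06 and 6.85 in the DM dogs, without overlap, a difference of 2.81 ± 0.75 (adjusted p = 0.105). Its deposited signals were 9.49, 53.1, 59.1 and 12.2 in the control dogs, in the dimmest quintile, so the offset bears on this size as well. UCHL5 was bright in all dogs, at 11.82, 11.11, 12.92 and 14.65 in the control dogs and 14.42, 15.43, 15.25 and 14.98 in the DM dogs, and differed by 2.39 ± 0.75 (adjusted p = 0.147), with D8 in the range of the DM dogs. USP16 had a difference of 1.61 ± 0.66 (adjusted p = 0.242), and again D8 was within the range of the DM dogs.

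USP14 (1597438_at), another deubiquitinase of the proteasome, had a very even level in control dogs. Its signals were 12.52, 12.46, 12.51 and 12.48 in the control dogs and 7.31, 10.98, 11.34 and 12.38 in the DM dogs. All DM dogs were below the control dogs, 1111 barely and 0292 by far, and the difference was -1.99 ± 0.91 (adjusted p = 0.292). UCHL1, abundant in neurons, was lower by both probe sets, at -2.07 and -1.40, and UCHL3 differed by 1.01. USP10 was higher in each of 3 probe sets, from 0.73 to 1.42. For USP11 the probe sets opposed each other. The brighter, 1582788_s_at, was 9.66, 9.59, 9.76 and 9.04 in the control dogs and 5.24, 4.80, 7.94 and 8.69 in the DM dogs, a difference of -2.85 ± 0.84 (adjusted p = 0.130) without overlap. The dimmer, 1591984_at, was 7.66, 5.44, 5.36 and 5.27 in the control dogs and 6.40, 10.14, 7.88 and 7.28 in the DM dogs, a difference of 1.99 ± 0.85 (adjusted p = 0.257), in which D5 stood above the other control dogs.

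USP7, a deubiquitinase that acts on MDM2, had the most probe sets, 9 in number, and they ranged from -1.82 to 1.83. At an unadjusted p below 0.05 there were a lower one, 1591519_at, at -1.82 ± 0.63 (adjusted p = 0.177) without overlap, and the higher 1598210_x_at, at 1.45 ± 0.60 (adjusted p = 0.244), and 1601394_x_at, at 1.37 ± 0.62 (adjusted p = 0.290). The lower 1591519_at shares a source sequence with 1591520_x_at, which differed by 1.34, in the other direction. By the array's naming, probe sets ending in _x_at hold probes that can bind unrelated transcripts and those ending in _s_at are shared by several transcripts, so the values of these, among them the brightest probe sets of UBE4A and NEDD8, are less certain. Of the 50 member genes with several probe sets, all probe sets were higher in 11, all lower in 12, and 27 had some of either (54%, beside 54.2% of the 2349 such genes on the array). USP7 and USP11 were the 2 genes with an unadjusted p below 0.05 in both directions.

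**Figure D4:**
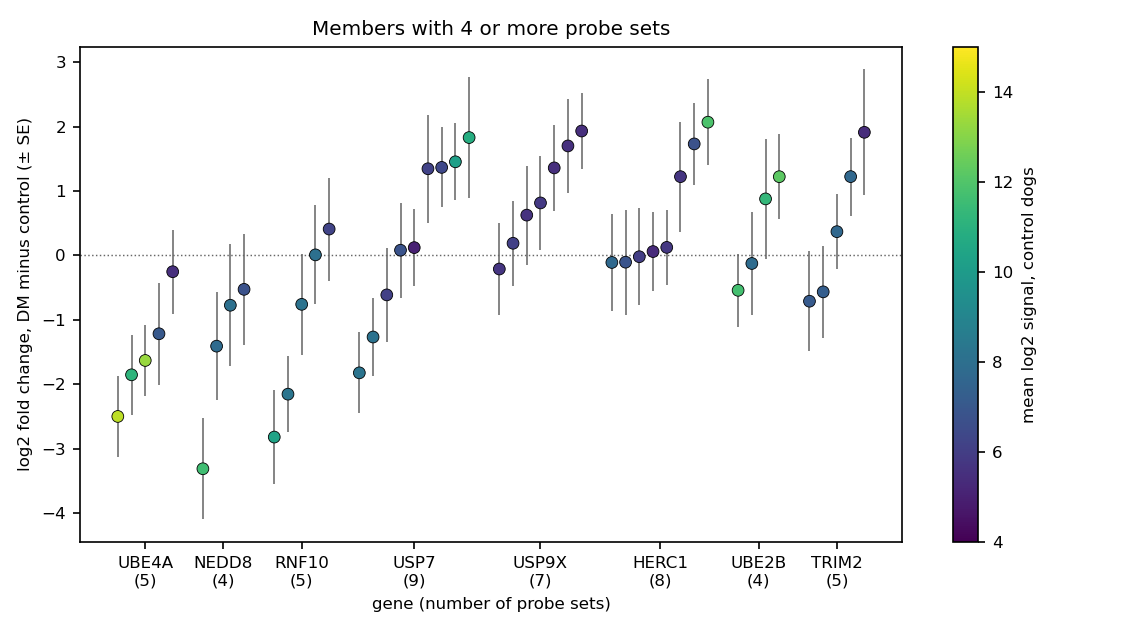
Log2 fold change of DM over control (± SE, vertical axis) of every probe set of the 8 member genes with 4 or more of them, coloured by mean control signal. UBE4A and NEDD8 lie below 0 with all probe sets, whereas those of USP7 run from -1.82 to 1.83.

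All 5 probe sets of the modifiers were lower, with a median of -0.77, and 1 of them (20%, beside 8.87% of all probe sets) had an unadjusted p below 0.05. It was the brightest of NEDD8, 1583443_s_at, and met the criteria of the methods, with deposited signals of 4631, 3703, 4403 and 1596 in the control dogs and 140, 178, 434 and 1122 in the DM dogs. Normalized, these were 12.04, 11.69, 12.02 and 10.72 in the control dogs and 6.66, 7.35, 8.99 and 10.22 in the DM dogs, or 11.62 ± 0.62 in control and 8.30 ± 1.61 in DM dogs (mean ± SD, n = 4 per group). The groups did not overlap, though D8 and DM dog 1111 were within 1 log2 unit of each other, and the difference was -3.31 ± 0.78 (adjusted p = 0.0873). Without 1111 it was -3.87, with an adjusted p of 0.0345. The other NEDD8 probe sets, of 6.78 to 8.02 in control dogs, differed by -1.41, -0.77 and -0.53. SUMO2 (1585801_at) was 9.70, 9.71, 9.72 and 10.40 in the control dogs and 8.94, 10.56, 9.70 and 9.67 in the DM dogs, a difference of -0.17 ± 0.58 (adjusted p = 0.912), which took the other sign under 5 of 17 alternatives.

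The DM dogs differed among themselves more than the control dogs. The SD over the 4 dogs was larger in the DM group for 188 members (78.0%, beside 76.8% of all probe sets), with a median SD of 1.21 against 0.66. Dog 0292 was the DM dog farthest from the control mean in 86 members (35.7%, beside 36.6% of all probe sets), 1087 in 60 (24.9% beside 22.8%), 0294 in 58 (24.1% beside 26.2%) and 1111 in 37 (15.4% beside 14.4%). D8 was nearer to the DM mean than to the mean of D5, D6 and D7 in 122 members (50.6%, beside 48.2%), in 3 of the 29 lower ones with an unadjusted p below 0.05 and in 7 of the 16 higher ones. The share among all probe sets past that level was not computed. The signal of D8 enters the p, so these counts depend in part on the selection. The median absolute deviation of the members from the control mean was 0.64 in D8, 0.31 to 0.38 in the other control dogs and 0.83 to 1.19 in the DM dogs.

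Other genes of the pathway, whose names the rule did not cover, were taken from 8 lists. Of their 129 probe sets (73 genes), 59 were higher and 70 lower, with a median of -0.12, and 10 higher (7.75%, beside 7.84% of all probe sets) and 17 lower ones (13.2% beside 8.87%) had an unadjusted p below 0.05 (0 had an adjusted p below 0.05). For ubiquitin itself, UBB (1583179_s_at) was 13.15, 13.55, 13.36 and 11.35 in the control dogs and 11.44, 6.10, 9.32 and 10.91 in the DM dogs, with D8 within the DM range and a difference of -3.41 ± 1.02 (adjusted p = 0.133), whereas RPS27A, the fusion of ubiquitin with a ribosomal protein, differed by 0.01 ± 0.56 (adjusted p = 0.997). ELOB, the elongin B subunit of cullin ligases, had the largest difference. Its brightest probe set was 12.73, 13.02, 12.84 and 10.61 in the control dogs and 6.63, 6.54, 8.47 and 9.91 in the DM dogs, a difference of -4.41 ± 0.85 (adjusted p = 0.0609) that met the criteria of the methods. ELOB differed by -3.40 and -2.60 in its other probe sets, where D8 was among the DM dogs. Of the 33 probe sets of other cullin ligase parts, 8 were lower (24.2%, beside 8.87% of all probe sets) and 0 higher (7.84% of all) at an unadjusted p below 0.05. The smallest p on the higher side was that of SUGT1, at 1.14 ± 0.62 (adjusted p = 0.373). The HECT ligases outside the rule were higher at that level in 2 of 11 probe sets (18.2% beside 7.84%) and lower in 0. One was SMURF2 (1591288_at), which restrains TGF-beta signalling, at 8.78, 8.36, 8.27 and 9.47 in the control dogs and 9.75, 11.40, 11.90 and 10.89 in the DM dogs, a difference of 2.26 ± 0.64 (adjusted p = 0.117), and its other probe set differed by 0.87. On the lower side WWP2 had the smallest p, at -1.37 ± 0.66 (adjusted p = 0.318). Among RING ligases outside the rule, SH3RF2 differed by -1.93 ± 0.67 (adjusted p = 0.178) and BARD1 by 2.51 ± 0.87 (adjusted p = 0.179). The other SH3RF2 probe sets differed by -1.95, -1.53 and 0.43. Among deubiquitinases outside the rule JOSD2 differed by -2.80 ± 0.85 (adjusted p = 0.135) and the proteasome subunit PSMD14 by 1.39 ± 0.61 (adjusted p = 0.276).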

How the data were processed

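Left ventricular RNA of 8 dogs was hybridized by the authors to 1 array each. The deposited values are linear signal intensities, 1 per probe set, made by the authors with MAS5 and scaled to a trimmed mean of 500 (2% off each end). An RMA step in GeneTraffic, also named in the methods, is not in these values. Here the 77 manufacturer controls were set aside, the other 23836 probe sets were brought to a common distribution by quantile normalization and expressed as log2 of the signal plus 16. Groups were tested by limma 3.58.1 in R 4.3.3 (lmFit and eBayes, two-sided, no covariate), with Benjamini-Hochberg adjustment over all 23836 probe sets and a threshold of 0.05. The methods' t-test was run on the same values with equal variances, the offset standing in for a variance stabilization that is not described, at P of at most 0.01 and at least 2-fold. Control probe sets were set against group by exact permutation (70 assignments), where the smallest two-sided p is 0.0286 with all dogs. The number of arrays limits the precision, and detection calls were not used here. Figures were drawn with matplotlib 3.10.9.

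Symbols came from the platform annotation, which gave 1 symbol for 10549 probe sets, several for 138 and none listed for 13149. Of the member probe sets, 228 matched a current gene table by gene identifier and 0 changed symbol. Named are members that met the criteria of the methods, in each role and each further list the gene with the smallest limma p on either side, and a list of well-known members. Genes outside this rule are marked as picked out after their values were seen, and so were UBE2E3, UBE2V1, UBE3C, UBE3D, HERC2, RNF25, CUL2, CUL9, OTUB2, USP5 and USP10. The members, roles and lists were chosen with earlier results of these data known. Alternatives were no quantile normalization, median centring, cyclic loess, scaling to the 18 hybridization controls, offsets of 1 and 64, leaving out the dimmest quintile of probe sets, array weights, 1 value per gene (for the median of the members only), each dog left out, and D8 and 0292 left out together. Leaving dogs out of the measures of the arrays and setting quintiles by the mean of all dogs were added after seeing the data. The steps were tested on simulated data.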

Additional observations from a re-analysis of the deposited data

Results flagged for a closer look

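In each group of 4 dogs, the highest or lowest dog was marked when the share of the range taken by its gap to the next one was above Dixon's critical value. Among 92 groups 11 were marked, or 12%. The critical value marks about 1 in 20 groups when these are independent. Here they share the same 8 dogs, and many of the probe sets were named for their values, so that rate is no reference. The share marked over all probe sets was not computed. In 8 of the 11 it was control dog D8. D8 was above the other control dogs in USP33 (7.86, the others 4.61 to 4.86), USP16 (10.83, the others 8.81 to 8.99), UBE2E1 (12.73, the others 11.85 to 11.95) and SUMO2 (10.40, the others 9.70 to 9.72). It was below them in OTUB1 (7.65, the others 8.84 to 9.02), RNF10 1583815_at (9.80, the others 10.49 to 10.62), FBXW7 1586614_at (5.73, the others 8.67 to 9.07) and UBA2 (5.36, the others 7.31 to 7.45). Control dog D5 was above the others in USP11 1591984_at (7.66, the others 5.27 to 5.44). Among DM dogs, 1087 was below the others in RNF13 1589011_at (5.32, the others 8.27 to 8.51) and 1111 above them in RNF113A (8.46, the others 5.04 to 5.43). All values are normalized log2 signals.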

How the results depend on the processing

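No paired analysis was possible because the control and DM groups were different dogs. The count of members with a limma adjusted p below 0.05, which was 0, became 2 with median centring, 1 with cyclic loess, 98 with scaling to the hybridization controls, 4 with an offset of 64, 9 with array weights and 11 without D8 and 0292, and ranged from 0 to 7 when 1 dog was left out. As shares of members, these were 0.830% (beside 0.994% of all probe sets) with median centring and 0.415% (beside 0.101%) with cyclic loess. The 98 were 40.7% beside 38.1%, and the 4 with an offset of 64 were 1.66% beside 1.87%. Array weights gave 3.73% beside 3.87%, and the 11 without D8 and 0292 were 4.56% beside 4.01%. The 7, without 1111, were 2.90% beside 1.98%. The 2 members higher by the criteria of the methods became 4 without quantile normalization, 0 with median centring, 9 with cyclic loess, 0 with scaling to the hybridization controls and 20 without D8 and 0292, and ranged from 1 to 10 (10 without D8) when 1 dog was left out. The 9 lower ones became 39 with scaling to the hybridization controls and ranged from 4 (without D5, D6 or D7) to 15 (without 1111). Of all 23836 probe sets, 583 were higher by these criteria. They became 636 without quantile normalization, 288 with median centring, 750 with cyclic loess, 0 with hybridization scaling and 1097 without D8 and 0292. Leaving 1 dog out gave 329 (without D5) to 734 (without D8). The 601 lower ones of all probe sets became 2926 with hybridization scaling and ranged from 278 (without D6) to 983 (without 1111). The median of the members, 0.02, was 0.29 without quantile normalization, -0.30 with median centring and -2.14 with scaling to the hybridization controls, where that of all probe sets was 0.34, -0.25 and -2.09. The group difference of the hybridization controls ranged from 1.97 to 3.07 when 1 dog was left out, that of the 3' minus 5' signal from 1.56 to 3.71 for actin and from -2.34 to -0.85 for GAPDH, a choice added after seeing the data.

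Signs changed as follows. Without quantile normalization FBXO32 was 0.38, UBA7 0.13 and MDM2 -0.20. With median centring MDM2 was -0.79, and with cyclic loess SUMO2 was 0.14. Scaled to the hybridization controls, FBXO3 was -0.13, UCHL5 -0.024, USP11 1591984_at -0.23, USP16 -0.72, USP7 1598210_x_at -1.27 and 1601394_x_at -0.77, USP9X 1595191_at -0.22 and 1597369_at -0.40, UBA2 -1.33, UBE2E1 -1.54, UBE2K -1.36, HERC1 -0.46 and MDM2 -2.64. With array weights UBA2 was -0.16, UBA7 0.28 and SUMO2 0.053, and without D8 and 0292 these were -0.45, 0.40 and 0.29. When 1 dog was left out, FBXO32 ranged from -0.88 to 0.70, UBA7 from -1.0 to 0.28, MDM2 from -0.031 to 0.19 and SUMO2 from -0.46 to 0.10. The cause was not tested. The other named members that were recomputed kept their direction under the 17 alternatives run for them. These were run per probe set, and other probe sets of the same gene can differ in direction. With 1 value per gene the median of the members was -0.04 (the brightest probe set) and 0.06 (the mean over probe sets).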

Other observations

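Further lists of neighbouring genes gave these values. Of 26 probe sets of enzymes and modifiers of the ubiquitin-like pathways, 1 was higher and 0 lower at an unadjusted limma p below 0.05 (3.85% in all, beside 16.7% of all probe sets tested). It was UFM1 (1584201_s_at), a modifier of the endoplasmic reticulum, with normalized log2 signals of 10.36, 9.74, 10.37 and 12.25 in the control dogs and 12.38, 13.36, 13.62 and 12.85 in the DM dogs, a difference of 2.37 ± 0.67 (adjusted p = 0.117), and D8 was close to DM dog 0292. A second UFM1 probe set differed by -0.68. NAE1, the partner of UBA3 in the NEDD8 E1, had -1.09 ± 0.63 (adjusted p = 0.407), and -1.12 in its other probe set. Among 23 probe sets of ubiquitin receptors and the segregase, 3 were higher (13%, beside 7.84% of all) and 3 lower (13% beside 8.87%) at that level. UBXN1 (1603033_at), a cofactor of the segregase, was 8.21, 8.26, 7.78 and 8.13 in the control dogs and 5.75, 5.75, 6.93 and 5.19 in the DM dogs, with no overlap and a difference of -2.19 ± 0.58 (adjusted p = 0.105), and its other probe sets differed by -1.94, -0.49 and 0.01. TAX1BP1 (1586855_at), an autophagy receptor, had 2.39 ± 0.69 (adjusted p = 0.125), and D8 was within the range of the DM dogs, and its other probe sets differed by 1.33 and 0.69. Of 12 probe sets of the anaphase promoting complex, 1 was higher and 1 lower (16.7% in all, as over all probe sets). They were ANAPC13, at 2.03 ± 0.85 (adjusted p = 0.249), and ANAPC5, at -1.82 ± 0.78 (adjusted p = 0.260). The other probe sets of ANAPC13 differed by 1.35 and -0.45, and that of ANAPC5 by 0.12. All these p are adjusted over all probe sets tested, and 0 of them passed 0.05.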
